A study of Mus musculus with 6 samples.

Results

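The 10 metabolic nuclear receptors described here are Ppara, Ppard, Pparg, Nr1h3 (LXRα), Nr1h4 (FXR), Nr1i2 (PXR), Nr1i3 (CAR), Rxra, Thrb and Nr3c1 (the glucocorticoid receptor). They were chosen by name. Each symbol was matched to its Ensembl gene, so that 10 of the 56305 genes of the liver RNA-Seq table were followed, and all 10 passed the filter on low values. The 39 other mouse nuclear receptor genes, the receptors' textbook target genes and their coregulators served as comparison.

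Nuclear receptors are transcription factors whose activity is set by small lipophilic ligands. The PPARs sense fatty acids, LXRα senses oxysterols, FXR senses bile acids, PXR and CAR sense drugs and other foreign compounds, and the thyroid hormone and glucocorticoid receptors bind circulating hormones. Most of these receptors bind DNA as a pair with RXR at repeats of the hexamer AGGTCA, whereas the glucocorticoid receptor binds as a homodimer. In liver they set the rates of fatty acid oxidation, lipid storage, bile acid synthesis, detoxification and gluconeogenesis.

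Liver RNA was taken from males aged 5 weeks, 3 of the WT and 3 of the Vps15LKO genotype, killed at ZT6, that is 6 h after lights on. All mice ate chow ad libitum under a 12 h light and 12 h dark cycle. The Vps15LKO mice (AlbCre+;Vps15f/f) had lost Vps15, the regulatory subunit of class 3 PI3K, through Cre expressed from the albumin promoter, which is active in hepatocytes. The labels call the controls WT and give no alleles for them. Each library is one liver, so the p-values measure the spread between mice.

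Between 16137093 and 18110223 reads were counted per library, and 112 to 10646 of them fell on any 1 receptor in any 1 liver. The authors divided the reads by a DESeq2 size factor of 0.742 to 0.801 in WT and 1.23 to 1.41 in Vps15LKO libraries. Pik3r4, which encodes Vps15, was at 508, 573 and 459.7 normalized counts in the 3 WT livers against 341, 362 and 355 in the mutants, and reads on the deleted part were not counted separately. Of 10 hepatocyte markers, none was at 0 in any liver and 7 were called lower in Vps15LKO liver, and the summed level of all 10 was 3550143 to 3932923 normalized counts in WT livers against 1164924 to 1699995 in the mutants. In the other direction, 13 of 15 macrophage, 11 of 11 stellate and fibroblast and 9 of 9 cholangiocyte markers were called higher, and their summed levels ran from 10767 to 12506, 7904 to 8391 and 1365 to 1519 in WT and from 39517 to 43154, 33717 to 39578 and 13842 to 26530 in Vps15LKO livers. Of the 9 endothelial markers, 5 were called lower and 3 higher. The part that these cell types have in the receptor levels was not tested.

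In the livers of Vps15LKO mice, 8 of the 10 receptors were lower and 2 were higher on the authors' size factors. With libraries scaled by total reads 5 stayed lower, and Nr1h3, Nr3c1 and Nr1i2 were level and not called, at log2 fold changes of −0.020, −0.021 and 0.013. Ppara, Nr1h3, Nr1h4, Nr1i2, Nr1i3, Rxra, Thrb and Nr3c1 were the lower ones, and Ppard and Pparg, the 2 PPARs that are minor in normal liver, were the higher ones. The fall ran from 1.64-fold for Nr1i2 to 4.37-fold for Nr1i3. The rise was 1.98-fold for Ppard and 2.30-fold for Pparg. Because whole liver was sequenced, fewer cells of a type and less RNA per cell cannot be told apart.

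The test was limma on log2(normalized count + 1), with Benjamini-Hochberg adjustment over 15430 genes, and calls required a fold of 1.2 or more besides an adjusted p below 0.05. By this rule, 33% of the tested genes were lower in Vps15LKO liver and 33.5% were higher. On the authors' size factors none of the 10 receptors overlapped between genotypes, against 36.8% of tested genes that lay lower and 36.4% that lay higher without overlap. The median log2 fold change was −1.09 over the receptors and −0.017 over all tested genes, against −0.36 and 0.70 on total reads and −0.52 and −0.10 after quantile normalization. With 3 livers against 3, no exact permutation test of 1 gene can give a p under 0.1.

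**Figure D1:**
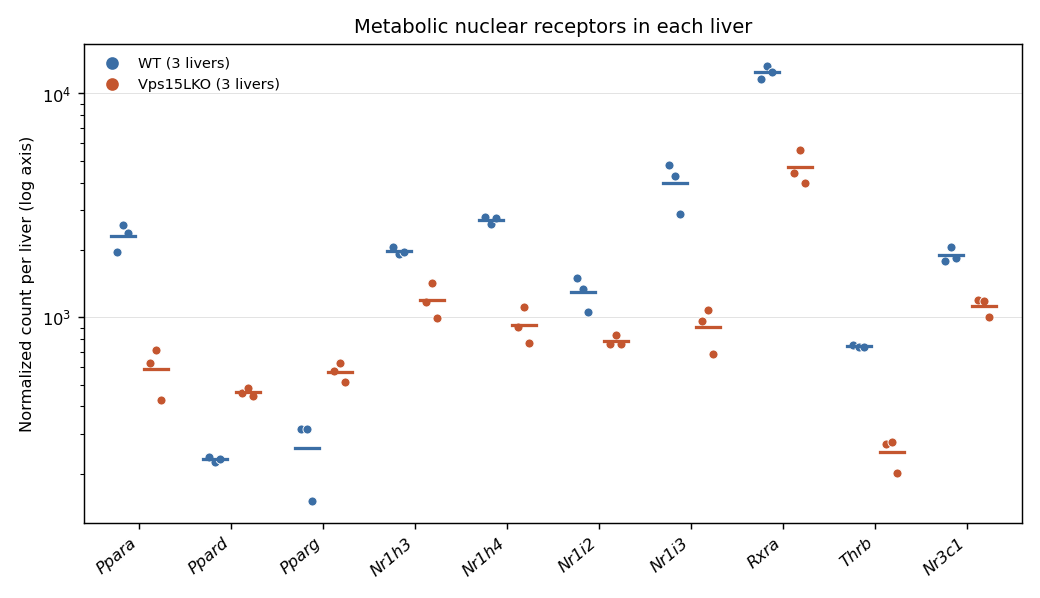
Normalized count of each receptor (log axis) in each of 3 WT (blue) and 3 Vps15LKO (orange) livers, with points for livers and bars for group means. The Vps15LKO points lie below the WT points for 8 receptors and above them for Ppard and Pparg; on total-read scaling Nr1h3, Nr3c1 and Nr1i2 are level (log2 fold changes −0.020, −0.021 and 0.013).

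The scaling of the libraries bears on these sizes. On total reads, the median gene shifted up by 0.72 on the log2 scale, and on upper quartiles by 0.12. With total-read scaling, 11.1% of genes were called lower and 66.7% higher. Under that scaling 5 receptors remained lower, namely Ppara at −1.27, Nr1h4 at −0.85, Nr1i3 at −1.40, Rxra at −0.70 and Thrb at −0.86 on the log2 scale. Ppard and Pparg rose there by 1.71 and 1.93. Nr1h3, at −0.020, Nr3c1, at −0.021, and Nr1i2, at 0.013, were no longer called. With quantile normalization, where 37.6% of genes were called lower and 30.4% higher, 8 receptors were again lower and 2 higher. Relative to the median gene of the same scaling, the log2 fold change of Nr1h3 was −0.73 on size factors and −0.72 on total reads.

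**Figure D2:**
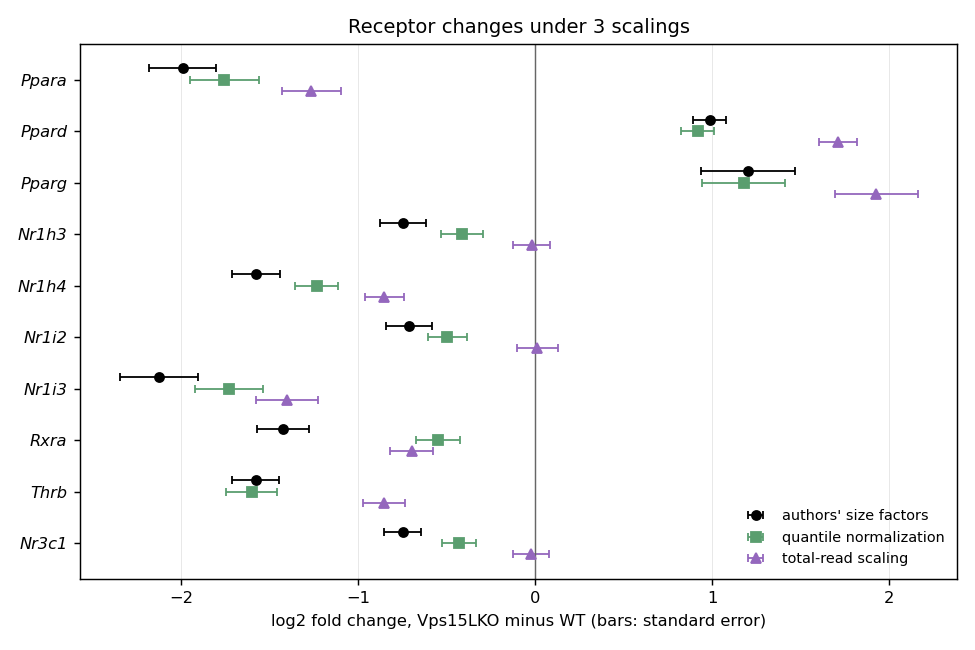
log2 fold change (Vps15LKO minus WT) of each receptor with its standard error, on the authors' size factors (black), after quantile normalization (green) and on total reads (purple). Ppara, Nr1h4, Nr1i3, Rxra and Thrb lie below 0 and Ppard and Pparg above 0 on all 3, whereas Nr1h3, Nr3c1 and Nr1i2 lie at 0 (−0.020, −0.021 and 0.013) on total reads.

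Sequences are shown for 4 receptors from both directions of change, because RXR pairs read the hexamer AGGTCA and the clock factors Clock and Bmal1 read the E-box CACGTG. RefSeq gave 14 promoter windows on GRCm38.p6 for 9 of the receptors, each running from 250 bases before to 50 bases after a start site. The E-box is its own reverse complement and was found in 2 of the 14 windows, compared with 7.15% of 32851 windows of all genes. AGGTCA, on either strand and so also as TGACCT, was found in 5 windows of 4 receptors (Rxra, Pparg, Nr1h4 and Thrb), compared with 16.3% of all windows. A match describes the letters in the window and not a bound factor. Capitals mark the match, which begins 244 bases before the start for Nr1i3 (E-box, chr1:171213720-171214019, plus strand), 193 before for Thrb (E-box, chr14:17981394-17981693, plus strand), 214 before for Nr1h4 (hexamer, chr10:89506609-89506908, minus strand) and 9 before for Pparg (hexamer, chr6:115362099-115362398, plus strand).
Nr1i3: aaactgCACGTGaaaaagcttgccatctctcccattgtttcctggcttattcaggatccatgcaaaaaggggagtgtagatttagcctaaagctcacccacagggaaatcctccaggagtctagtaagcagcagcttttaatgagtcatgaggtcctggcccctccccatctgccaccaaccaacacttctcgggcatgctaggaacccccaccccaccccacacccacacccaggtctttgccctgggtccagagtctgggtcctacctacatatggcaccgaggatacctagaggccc
Thrb: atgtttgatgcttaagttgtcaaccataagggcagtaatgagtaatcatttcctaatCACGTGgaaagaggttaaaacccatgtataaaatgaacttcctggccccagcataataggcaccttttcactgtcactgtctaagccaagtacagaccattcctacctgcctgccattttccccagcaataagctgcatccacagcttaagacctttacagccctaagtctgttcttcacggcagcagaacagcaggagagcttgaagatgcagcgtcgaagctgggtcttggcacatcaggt
Nr1h4: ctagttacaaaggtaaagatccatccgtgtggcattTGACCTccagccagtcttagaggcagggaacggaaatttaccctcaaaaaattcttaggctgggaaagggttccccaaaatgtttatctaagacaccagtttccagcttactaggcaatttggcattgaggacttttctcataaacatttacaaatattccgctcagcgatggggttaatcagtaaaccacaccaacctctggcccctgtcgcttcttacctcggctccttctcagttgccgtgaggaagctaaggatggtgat
Pparg: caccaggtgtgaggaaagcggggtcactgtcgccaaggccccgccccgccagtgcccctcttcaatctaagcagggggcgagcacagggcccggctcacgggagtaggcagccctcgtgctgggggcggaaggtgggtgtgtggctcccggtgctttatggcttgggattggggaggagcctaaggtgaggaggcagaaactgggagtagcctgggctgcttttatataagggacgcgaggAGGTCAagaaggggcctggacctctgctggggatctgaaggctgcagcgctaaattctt

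Ppara encodes the receptor that drives fatty acid oxidation and ketogenesis in fasted hepatocytes, and it lies on chromosome 15 from 85734983 to 85802819 (GRCm38, plus strand). It had 1966, 2573 and 2387 normalized counts in WT replicates 1, 2 and 3, and 626, 717 and 426 in Vps15LKO replicates 1, 2 and 3. The highest Vps15LKO liver was well under the lowest WT liver. This 3.98-fold fall had a log2 fold change of −1.99 (standard error 0.19) and an adjusted p of 3.5e-05 (limma with Benjamini-Hochberg adjustment). It stayed between −2.15 and −1.77 when any 1 liver was left out.

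Ppard, the most widely expressed PPAR, is on chromosome 17 from 28232700 to 28301474 (plus strand). Its WT livers held 239, 226 and 233 normalized counts and its Vps15LKO livers 459.7, 483 and 444, so that the livers of each genotype lay close together and the genotypes were far apart. On the log2 scale the rise was 0.99 (adjusted p = 3.3e-05, limma, standard error 0.09). Pparg, the master regulator of fat storage, is on chromosome 6 from 115360951 to 115490399 (plus strand). It had 316, 316 and 151 normalized counts in WT replicates 1, 2 and 3 and 574, 626 and 516 in Vps15LKO liver, all above the WT livers. WT replicate 3 stood apart, at 0.478 of the lower of the other WT livers. Pparg rose by 1.203 on the log2 scale (adjusted p = 0.0035, limma, standard error 0.26), and by 0.85 (adjusted p = 0.00036, limma) without WT replicate 3. Adipocytes are rich in Pparg, and the 5 adipocyte markers summed to 3 to 42 reads in WT, the most in WT replicate 3, and to 1 to 19 reads in Vps15LKO libraries. Macrophages also express Pparg, and 13 of their 15 markers were called higher, a part that was not tested.

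The share of the 3 genes' reads per kilobase of exon that fell on Ppara was 78.7%, 83.0% and 88.3% in WT and 38.99%, 40.4% and 32.2% in Vps15LKO livers. Pparg went from 16.4%, 13.2% and 7.26% to 46.4%, 45.7% and 50.7%, and per kilobase it was above Ppara in each Vps15LKO liver. In normalized counts, which are not divided by length, Ppara stayed above Pparg in 2 of the 3 Vps15LKO livers. The share of Ppard was 4.34% ± 0.58 in WT liver against 15.2% ± 1.71 in the mutant (SD, n = 3). All 3 shares were without overlap between genotypes (2-sided exact permutation p = 0.1 each, the smallest that 3 against 3 allow, and 0.108 adjusted over the 14 shares of 6 families given here). Shares within a library do not depend on its size factor. These family shares were added after the receptor values had been seen.

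**Figure D3:**
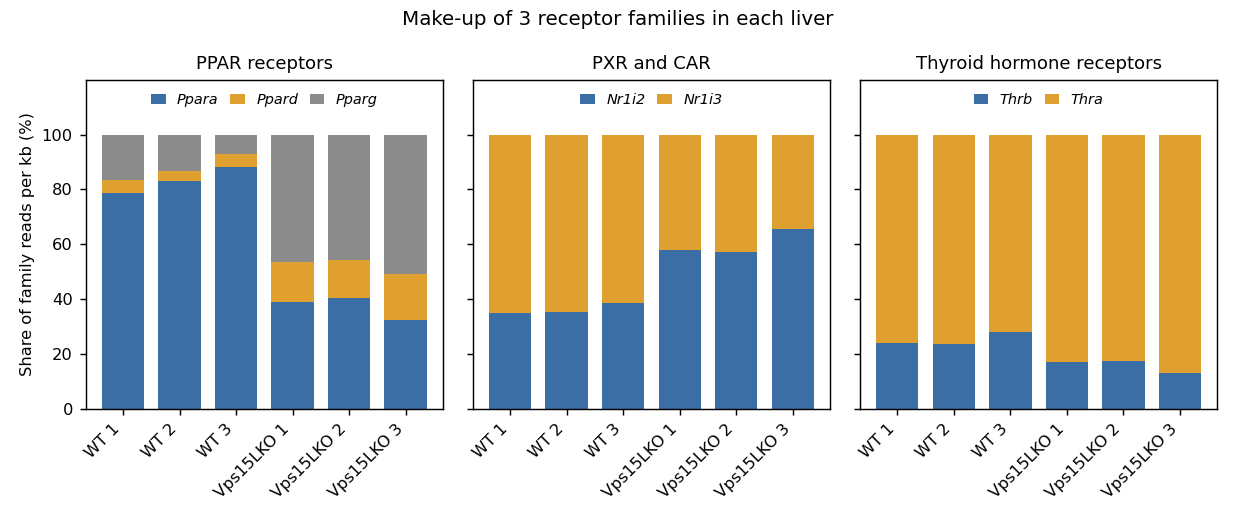
Share (%) of each family's reads per kilobase that fell on each member, with 1 stacked bar per liver, for the PPARs, for PXR (Nr1i2) and CAR (Nr1i3), and for the thyroid hormone receptors. Ppara falls from a mean of 83.4% to 37.2% while Pparg grows from 12.3% to 47.6%, Nr1i2 grows from 36.3% to 60.2% and Thrb falls from 25.1% to 15.8%.

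Of 27 genes written as targets of PPARα, 21 were called lower and 4 higher, with a median log2 fold change of −1.12, and 13 were lower and 4 higher on total reads. Counts of this and the later lists stand beside 33% of all tested genes lower and 33.5% higher on size factors. Those shares were 11.1% and 66.7% on total reads, where the median gene was at 0.70. Cpt1a, the gate of mitochondrial fatty acid import, had 8468, 9710.5 and 9983 normalized counts in WT and 5585, 6589.7 and 3916 in Vps15LKO liver (log2 fold change −0.84, but 0.022 after quantile normalization). The largest fall of the list was in Cyp4a14, a fatty acid ω-hydroxylase, at −3.95 (adjusted p = 0.00068, limma with Benjamini-Hochberg adjustment), and its WT livers were widely spread at 16879, 12186 and 6578. It was at −4.70 without Vps15LKO replicate 2 and at −3.25 without Vps15LKO replicate 3. Pdk4, an inhibitor of glucose oxidation, was called higher and had 92.8, 81.2 and 56.6 normalized counts in WT and 618, 555 and 241 in Vps15LKO liver (log2 fold change 2.52).

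Of 8 genes that Pparg induces in fatty liver, 6 passed the filter and all 6 were called higher, with a median log2 fold change of 1.76 (2.48 on total reads), while 5 of the 6 had no overlap between genotypes and 5 were called after quantile normalization. Cidec, a lipid droplet protein, had 33.1, 56.2 and 78.2 normalized counts in WT and 473, 558 and 283 in Vps15LKO liver, a log2 fold change of 2.98 (adjusted p = 8.5e-05, limma). Lpl, the lipase that frees fatty acids from lipoproteins and that macrophages also make, rose by 3.07, from 411, 518 and 1593 to 6460.5, 5843 and 5387. WT replicate 3, the WT liver with the least Pparg, had the most Lpl of the WT livers and the most reads on the adipocyte markers, whose part in these values was not tested, and without it the rise of Lpl was 3.67. Fabp5, a fatty acid binding protein named here after its values were seen, was the member that overlapped, with 187, 282 and 1213 normalized counts in WT and 1109, 1137 and 1266 in Vps15LKO liver. It was called at 1.54 (adjusted p = 0.039, limma), but not by edgeR (adjusted p = 0.11) or DESeq2 (adjusted p = 0.23). Without WT replicate 3 it was at 2.34, and without any 1 of the other 5 livers it was not called, at 0.996 to 1.58. Fabp4, another such protein named after its values were seen, was called at 0.68, but not after quantile normalization (0.30) nor without WT replicate 1, WT replicate 2 or Vps15LKO replicate 1 (0.56, 0.54 and 0.63). Cidea and Mogat1 did not pass the filter. Cidea held at most 1.25 normalized counts in any WT liver and 8.40, 6.48 and 7.07 in the Vps15LKO livers.

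Nr1h3 encodes LXRα, which answers cholesterol excess with efflux and lipogenesis, and lies on chromosome 2 from 91184061 to 91202834 (minus strand). The WT livers had 2059, 1925 and 1960.0 normalized counts and the Vps15LKO livers 1171, 1421 and 989. The groups did not overlap, with a log2 fold change of −0.75 ± 0.13 (standard error) and an adjusted p of 0.001 (limma). Its share of LXR reads per kilobase, with Nr1h2 (LXRβ) as the other member, was 66.3% ± 1.27 in WT liver against 56.7% ± 3.94 in the mutant (SD, n = 3, exact permutation p = 0.1).

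Of 13 LXR targets, 8 were called lower and 4 higher (median log2 fold change −0.69). On total reads 4 were lower and 5 higher (median 0.04, against 0.70 over all tested genes). Abcg1 rose by 2.15, from 196, 214 and 224 to 952, 931 and 944 normalized counts, and the livers of each genotype were nearly equal. Abcg5, which sends sterols into bile, was at −0.99, but at −0.26 and not called on total reads. Abca1, another cholesterol exporter, was at −0.45, but at 0.28 on total reads and 0.12 after quantile normalization. Cyp7a1, the rate-limiting enzyme of bile acid synthesis, was called lower at −1.77, and Lpl had the largest rise.

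Nr1h4 encodes FXR, the bile acid receptor, on chromosome 10 from 89454234 to 89533585 (minus strand). It had 2798, 2622 and 2778 normalized counts in WT replicates 1, 2 and 3 and 900.3, 1109 and 766 in Vps15LKO replicates 1, 2 and 3. The WT livers were nearly equal, and each was more than any Vps15LKO liver by a wide gap. Nr1h4 changed by −1.58 on the log2 scale (limma, adjusted p = 1.8e-05, standard error 0.13), and by between −1.72 and −1.45 when any 1 liver was left out.

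Of 10 genes that FXR induces, 6 were called lower and 2 higher (median −0.59). On total reads 4 were lower and 4 higher (median 0.13, against 0.70 over all tested genes). Nr0b2, the repressor SHP through which FXR shuts off bile acid synthesis, had 1461, 718 and 783 normalized counts in WT and 175, 323 and 144 in Vps15LKO liver (log2 fold change −2.22). Abcb11, the bile salt export pump, changed by −2.40, and Slc27a5, which activates bile acids for conjugation, by −2.81 (−1.62 and −1.99 after quantile normalization). Slc51b, a basolateral bile acid exporter, was called higher at 1.88, from 18.6, 7.49 and 29.7 to 60.3, 51.1 and 77.8 normalized counts, and at 1.07 after quantile normalization. All 3 genes written as repressed by FXR were lower as well. Cyp8b1, the sterol hydroxylase, changed by −4.10, Slc10a1, the basolateral bile acid importer, by −3.24 (−2.43 after quantile normalization) and Cyp7a1 by −1.77. Leaving out Vps15LKO replicate 2 moved Cyp8b1 to −4.83, and leaving out Vps15LKO replicate 3 moved it to −3.57. Slc10a1 and Cyp8b1 are made by hepatocytes, whose markers were called lower in 7 of 10 cases, and the part of this in their change was not tested.

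Nr1i2 encodes PXR, on chromosome 16 from 38248323 to 38294824 (minus strand). Its WT livers had 1496, 1342 and 1055 normalized counts and its Vps15LKO livers 763, 832 and 757. On the log2 scale Nr1i2 was at −0.71 ± 0.13 (standard error, adjusted p = 0.0014, limma), and at 0.013 (adjusted p = 0.92, limma) on total reads. Nr1i3 encodes CAR, on chromosome 1 from 171213970 to 171220701 (plus strand). It had 4795, 4287 and 2887 normalized counts in WT and 966, 1075 and 683 in Vps15LKO liver (log2 fold change −2.13, standard error 0.22, adjusted p = 5.2e-05, limma). On total reads it was at −1.40. For both receptors, WT replicate 3 was the lowest WT liver and yet above every Vps15LKO liver.

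The level of Nr1i3 carries a limit. Of its merged exons, 3304 bases (74.9%) are shared with Tomm40l on the opposite strand, and the sources do not say whether counting used the strand. Tomm40l, named here after its values were seen, had 4577, 4061 and 2740.5 normalized counts in WT and 941, 1052 and 681 in Vps15LKO liver, nearly equal to Nr1i3 in every liver. Reads of the 2 genes were therefore not told apart here. Counted this way, Nr1i2 rose from 36.3% ± 2.11 to 60.2% ± 4.75 of the reads per kilobase of the PXR and CAR pair (SD, n = 3, exact permutation p = 0.1).

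Of 10 PXR targets, 5 were called lower and 3 higher (median −0.58). On total reads 4 were lower and 5 higher (median 0.15, against 0.70 over all tested genes). Cyp3a11, the main drug-metabolizing P450 of its list, had 153536, 131517 and 68418 normalized counts in WT and 26606, 40940.2 and 20505 in Vps15LKO liver (log2 fold change −1.98). After quantile normalization it was at −0.54 and not called (adjusted p = 0.14, limma). Slco1a4, an organic anion importer, changed by −1.80 and Ces2a, a carboxylesterase, by −2.81, the largest fall. In the other direction Cyp2c55 changed by 1.38, and Gsta1, a glutathione transferase, rose from 71.6, 24.98 and 9.44 to 2048, 1814 and 1930.2 normalized counts. That rise of 6.16 on the log2 scale (adjusted p = 2.8e-05, limma) was the largest among the genes of all receptor target lists, and it was 6.87 without WT replicate 1 and 5.47 without WT replicate 3.

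Of 9 CAR targets that passed the filter, 5 were called lower and 2 higher (median −1.16), and on total reads 5 were lower and 3 higher. Cyp2c29 had 28348, 29708 and 16002 normalized counts in WT and 2414, 2979 and 1719 in Vps15LKO liver (log2 fold change −3.36, or −2.53 after quantile normalization), and Cyp2c37 changed by −2.94. Cyp2b10, the classical CAR target, did not pass the filter, with 17.2, 16.2 and 8.09 normalized counts in WT and 2.29, 3.24 and 0.707 in Vps15LKO liver. Abcc4, an exporter of bile salts and nucleotides, moved the other way, from 98.1, 122.4 and 68.7 to 2813, 2414 and 2417 (log2 fold change 4.74, adjusted p = 5.8e-07, limma). Cyp2c, Cyp3a, Cyp4a, Gsta and Ces2 genes have close paralogs, and how reads that map to several places were counted is not stated, so their single levels are uncertain. WT replicate 3 was the lowest WT liver for Cyp3a11, Slco1a4, Ces2a, Cyp2c29, Cyp2c37 and Cyp2b10.

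Rxra, the common partner of the PPARs, LXRα, FXR, PXR, CAR and Thrb, lies on chromosome 2 from 27676440 to 27762957 (plus strand). It had the highest level of the 10 receptors, also per kilobase, with 11605, 13298 and 12415 normalized counts in WT and 4429.9, 5599 and 3989 in Vps15LKO liver. The gap between the genotypes was wider than the range within either. Rxra changed by −1.42 ± 0.15 on the log2 scale (standard error, adjusted p = 5.4e-05, limma), by −0.70 on total reads and by −0.55 after quantile normalization. Among the RXR genes, Rxra held 90.8% ± 0.69 of the reads per kilobase in WT and 84.8% ± 0.23 in Vps15LKO liver, and Rxrb 6.66% ± 0.38 and 13.2% ± 0.60 (SD, n = 3). The share of Rxrg overlapped between genotypes (2.55% ± 0.46 and 2.02% ± 0.37, exact permutation p = 0.2).

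The ratio of a receptor to Rxra in the same liver is free of the size factor, and 9 ratios were compared. Nr1h4 overlapped between genotypes, with 24.1%, 19.7% and 22.4% of the Rxra count in WT and 20.3%, 19.8% and 19.2% in Vps15LKO liver. Thrb likewise overlapped, with 6.50%, 5.51% and 5.95% in WT and 6.15%, 4.95% and 5.04% in Vps15LKO liver. The log2 ratios of these receptors differed by −0.15 each (2-sided exact permutation p = 0.3, adjusted over the 9 ratios 0.3). The other 7 ratios were without overlap, each at an exact permutation p of 0.1, the smallest that the design allows (0.129 adjusted).

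The ratio was lower in Vps15LKO liver for Ppara, by −0.57 on the log2 scale, and for Nr1i3, by −0.70. It was higher for Nr1h3 (0.68), Nr3c1 (0.68) and Nr1i2 (0.71), the receptors that were level on total reads. The widest differences were in Ppard, at 2.41, and Pparg, at 2.63. Pparg stood at 2.72%, 2.38% and 1.22% of Rxra in WT and at 12.9%, 11.2% and 12.9% in Vps15LKO liver. The glucocorticoid receptor does not pair with Rxra, and its ratio is given on the same scale only to compare levels.

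**Figure D4:**
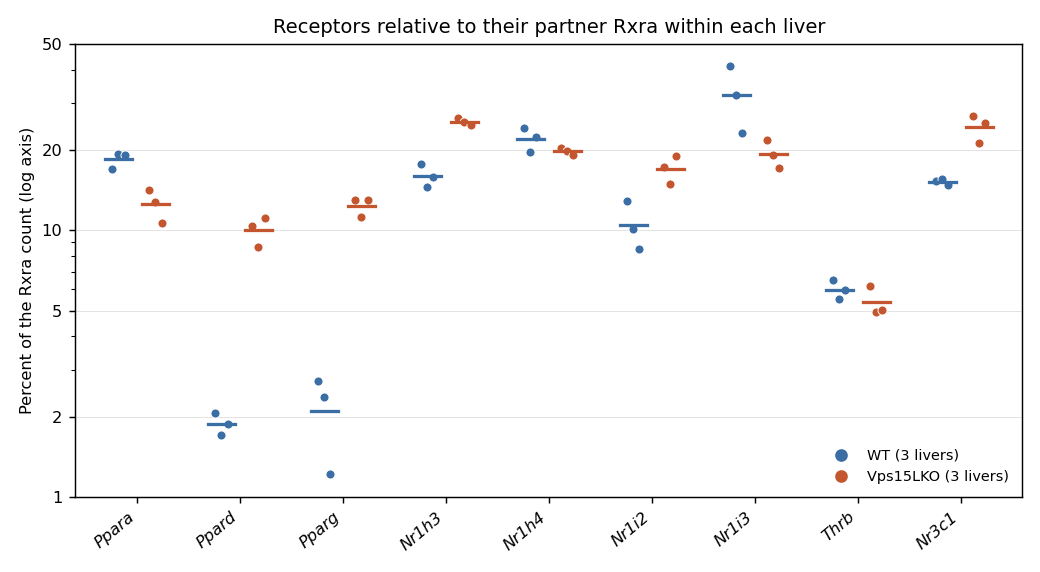
Each receptor's normalized count as a percent of the Rxra count of the same liver (log axis), with points for 3 WT (blue) and 3 Vps15LKO (orange) livers and bars for means. The groups overlap for Nr1h4 and Thrb, Ppara and Nr1i3 lie lower in Vps15LKO liver, and Ppard, Pparg, Nr1h3, Nr1i2 and Nr3c1 lie higher.

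Thrb encodes the main thyroid hormone receptor of hepatocytes, on chromosome 14 from 17660261 to 18038090 (plus strand). The WT livers had 754, 733 and 739 normalized counts and the Vps15LKO livers 273, 277 and 200.9. The WT livers were close to equal, with an SD of 11.03, and did not overlap with the Vps15LKO livers. The log2 fold change of Thrb was −1.58 ± 0.13 (standard error, adjusted p = 1.8e-05, limma). Its share of thyroid hormone receptor reads per kilobase went from 25.1% ± 2.33 to 15.8% ± 2.48 (SD, n = 3, exact permutation p = 0.1), the rest being Thra, whose exons overlap those of Nr1d1 on the other strand.

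Of 7 thyroid hormone targets, 5 were called lower and 2 higher (median −1.33), and on total reads 4 were lower and 2 higher. Thrsp, a lipogenic target, had 6900.2, 5669.6 and 4639.8 normalized counts in WT and 254, 289 and 199 in Vps15LKO liver, a log2 fold change of −4.53 (adjusted p = 4.7e-07, limma). Dio1, the deiodinase that activates the hormone, changed by −3.86 and Me1, the malic enzyme, by −1.33. Hr, a corepressor that thyroid hormone induces in brain, rose from 9.28, 19.99 and 13.5 to 263, 260.1 and 320.4 normalized counts (log2 fold change 4.26, or 3.67 after quantile normalization).

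Nr3c1, the glucocorticoid receptor, lies on chromosome 18 from 39410545 to 39519421 (minus strand). It had 1778, 2064 and 1831 normalized counts in WT and 1188, 1186 and 1008 in Vps15LKO liver. The groups did not overlap, with a log2 fold change of −0.75 ± 0.10 (standard error) and an adjusted p of 0.00028 (limma). Against Nr3c2, the mineralocorticoid receptor, its share of reads per kilobase rose from 75.6% ± 2.30 to 82.4% ± 2.11 (SD, n = 3, exact permutation p = 0.1).

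Of 16 glucocorticoid targets, 7 were called lower and 2 higher (median −0.73). On total reads 7 were lower and 6 higher (median −0.00, against 0.70 over all tested genes). Tat, an amino acid catabolic enzyme induced by glucocorticoids, had 29111, 23107 and 32496 normalized counts in WT and 4474, 5619 and 3531 in Vps15LKO liver (log2 fold change −2.65, or −1.67 after quantile normalization). G6pc, the last enzyme of gluconeogenesis, was called lower at −3.21, with −3.96 when Vps15LKO replicate 2 and −2.39 when Vps15LKO replicate 3 was left out, and Igfbp1 had the largest rise at 3.40 (4.14 after quantile normalization). Fkbp5, a chaperone partner that glucocorticoids induce in most cells, was at 582, 618 and 687 in WT and 599, 565 and 738 in Vps15LKO liver (log2 fold change 0.0050, adjusted p = 0.98, limma; on total reads 0.73). Per1, which is also a clock gene, was not called, at −0.50 with 0.23 on total reads.

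Of 9 genes for ligand supply and chaperones, 7 were called lower and 1 higher (median −1.55), and on total reads 6 were lower and 3 higher. Hsd11b1, which regenerates active glucocorticoid inside the cell, had 13297, 12120.0 and 9844 normalized counts in WT and 2049.6, 2291 and 1672 in Vps15LKO liver (log2 fold change −2.55, adjusted p = 3.9e-06, limma), and it was at −1.84 after quantile normalization. Slc16a10, which transports thyroid hormone and aromatic amino acids, changed by −1.76. The rise was in Hsp90aa1, a chaperone of the unliganded steroid receptors, at 0.73.

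**Figure D5:**
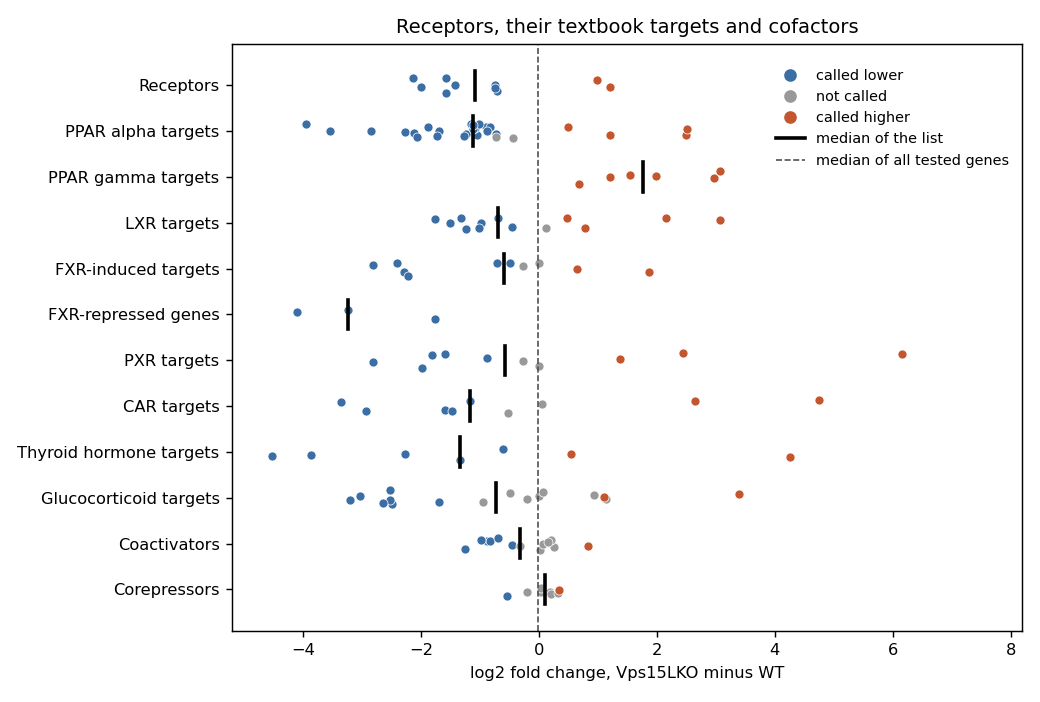
log2 fold change (Vps15LKO minus WT, on the authors' size factors) of every tested gene of the receptors, their textbook targets and cofactors, coloured by call, with list medians as black bars and the median of all tested genes as a dashed line. Most lists hold genes on both sides of 0; all 6 PPARγ targets lie above it and all 3 FXR-repressed genes below it. On total reads the LXR, FXR-induced, PXR and coactivator lists have medians of 0.04, 0.13, 0.15 and 0.41. Each lies below the median of all tested genes on that scale (0.70).

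Levels of different genes were compared per kilobase of merged exon. The place of Nr1i3 includes reads that could not be told apart from Tomm40l. In WT liver the means ran in the order Rxra (2277 normalized counts per kilobase), Nr1h4 (1187), Nr1i3 (904), Nr1h3 (788), Ppara (602), Nr1i2 (508), Nr3c1 (246), Thrb (100.2), Pparg (88.3) and Ppard (30.96). Nr1i3 overlapped with Nr1h3, Nr1i2 with Ppara and Pparg with Thrb, so these neighbours did not differ beyond their spread. In Vps15LKO liver the order was Rxra (856), Nr1h3 (475), Nr1h4 (402), Nr1i2 (307), Nr1i3 (206), Pparg (194), Ppara (154), Nr3c1 (147), Ppard (61.5) and Thrb (33.8). There, the ranges over livers overlapped for Nr1h3 with Nr1h4, Nr1i3 with Pparg, Pparg with Ppara and Ppara with Nr3c1. Compared liver by liver, Nr1h3 was above Nr1h4 and Pparg above Ppara in every Vps15LKO liver, while the other pairs changed order. Rxra was first in both orders, and the last place passed from Ppard to Thrb.

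Among the 57 other genes that passed the filter in the nuclear receptor, coactivator and corepressor lists, the gene whose 6 values most resembled each receptor was found by the root mean square distance of log2 values centred on the WT mean. Rxra lay nearest to Hnf4a (distance 0.072), Nr1h4 and Thrb to each other (0.086), Nr1i2 to Thra (0.085), Nr3c1 to Ncoa2 (0.079), Nr1h3 to Nr3c1 (0.13) and Ppara and Nr1i3 to each other (0.31). Both rising receptors, Ppard (0.088) and Pparg (0.34), lay nearest to Rarg, the retinoic acid receptor γ. Hnf4a, a liver-enriched receptor and a pillar of hepatocyte identity, had 17857, 19667 and 16638 normalized counts in WT and 6823, 8087 and 5982 in Vps15LKO liver (log2 fold change −1.38, with −0.66 on total reads and −0.33 after quantile normalization). Rarg had 294, 266 and 245 in WT and 511, 545 and 558 in Vps15LKO liver (log2 fold change 1.002). These are likenesses over 6 livers of 2 genotypes, which any pair of genes with similar fold changes shares.

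Of the 39 other nuclear receptors, 27 passed the filter, 19 were called lower and 4 higher (median log2 fold change −0.58). On total reads 7 were lower and 9 higher (median 0.15, against 0.70 over all tested genes). Thra was at −0.74, but at −0.012 and not called on total reads. Rara, a retinoic acid receptor, was at −0.35, but at 0.37 on total reads. Its relative Rarb was called higher at 0.50, but was at 0.045 and not called after quantile normalization. Nr4a3, an orphan receptor induced by stress signals, was called higher, with 2.65, 0 and 4.04 normalized counts in WT (at most 3 reads a library) and 42.8, 35.7 and 39.6 in Vps15LKO liver, a fitted 3.93 that fell to 3.23 without WT replicate 2 and to 2.56 after quantile normalization.

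Of 13 coactivators, 6 were called lower and 1 higher (median −0.32). On total reads 1 was lower and 7 higher (median 0.41), beside 11.1% of all tested genes lower and 66.7% higher (median 0.70). Ppargc1a, the coactivator PGC-1α that joins PPARα in fasting, was at −0.69 on size factors and 0.030 on total reads, and its relative Ppargc1b was at −0.97 and −0.25, neither of them called on total reads. With 1 liver left out, Ppargc1a was called in 2 of 6 cases, those without WT replicate 3 or Vps15LKO replicate 3, and Ppargc1b lost it without WT replicate 2 (adjusted p = 0.062, limma). Lpin1, a lipid phosphatase that also acts as a coactivator of PPARα, was called lower at −1.25 (−0.53 on total reads). Pprc1 was called higher, from 261, 344 and 439 to 561, 623 and 635 normalized counts (log2 fold change 0.83). Of 8 corepressors, 1 was called lower and 1 higher, with a median of 0.11. On total reads 0 were lower and 7 higher, again beside 66.7% of all tested genes higher. Ncor1, the nuclear receptor corepressor, was at −0.54 but at 0.19 on total reads, Nrip1 was not called at 0.32, and Gps2, a subunit of the corepressor complex, was called higher at 0.34, and was not called without WT replicate 2 or 3 or without Vps15LKO replicate 1 or 3.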

How the data were processed

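Per the paper's methods, the authors cleaned reads (SOAPnuke), aligned to GRCm38 (HISAT2), summarised by gene (featureCounts) and normalized with DESeq2 (tool versions and the strand and multi-mapping settings are not given in the sources used here, although the library kit marks strand). The deposited values are a signal, reads divided by 1 size factor per library; all were whole multiples of 1 read within 0.1, so reads were recovered for the alternatives. GENCODE M21 named 55227 of the 56305 genes.

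The 15430 genes that reached 20 normalized counts in 3 or more of the 6 livers were compared by limma 3.58.1 (trend) on log2(normalized count + 1) in R 4.3.3, which understates changes of low genes. Ratios and shares used exact permutation tests. The members, gene lists and tests were chosen with earlier results of these data known, and several genes stand on more than 1 list. Named were the 10 receptors, Pik3r4, the first 3 genes and the largest called rise and fall of each list, and the gene nearest to each receptor, except that some genes of this rule are not reported here. Nr1h2, Rxrb, Rxrg, Nr3c2, Tomm40l, Cidea and Cyp2b10 values were added after seeing the data where no rule named them. The fit was tested on simulated data. Replicates of 1 genotype differed by a chi-square per gene of 13.99 to 36.37, so no library was a copy.

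Alternatives were other pseudocounts (0.1 and 10), filters, thresholds and scalings, limma without trend or with voom, edgeR 4.0.16 and DESeq2 1.42.0 on recovered reads, each liver left out, and replicate number as a block. Promoter windows came from RefSeq on GRCm38.p6. Tables and plots used Python 3.11.15, numpy 2.4.6, pandas 2.3.3 and matplotlib 3.10.9.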

Additional observations from a re-analysis of the deposited data

How the results depend on the processing

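Of 210 receptor fold changes under the alternatives, 207 kept their direction and call. The exceptions came from total-read scaling, which ended the calls of Nr1h3 and Nr3c1 and moved Nr1i2 to 0.013. It left 5 receptors lower, and over all genes 1712 lower and 10299 higher. The same scaling turned the log2 fold changes of Rara to 0.37, Ppargc1a to 0.030, Ncor1 to 0.19, Abca1 to 0.28, Per1 to 0.23, Stab2 to 0.37, Clec4g to 0.30 and Pik3r4 to 0.19. Quantile normalization turned Cpt1a to 0.022 and Abca1 to 0.12. By construction, total-read scaling takes the share of a gene in its library, while the size factors hold the typical gene level, and which scale is nearer to the amount per cell was not tested. Fkbp5, at 0.0050, ran from −0.11 to 0.084 with 1 liver left out. The 9 ratios to Rxra kept their direction with each liver left out and with the other pseudocounts. The overlap of Nr1h4 rested on WT replicate 2 (19.7% of Rxra) and that of Thrb on Vps15LKO replicate 1 (6.15%). Without that liver the genotypes did not overlap.

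With the replicate block, 4983 genes were lower and 5065 higher, and 8 receptors were lower and 2 higher. Livers that share a number deviated from their group means with correlations of −0.01, −0.01 and 0.05. The paper states that mice were bred to have both genotypes in a litter. With 3 livers per genotype, these correlations cannot show whether the numbers pair livers, and the block is given only here. List counts were within 1.5 times of those given in 775 of 840 cases. Genes under the filter, such as Cyp2b10, and genes with few reads, such as Nr4a3, are limited by depth.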

Other observations

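WT replicate 3 was below both other WT livers for 3 of the 10 receptors (Pparg, Nr1i2 and Nr1i3), a pattern that 38.3% of all tested genes showed. For Nr1i3 it stood at 0.674 and for Nr1i2 at 0.787 of the lower of the other WT livers. Of 7 lymphocyte markers, 5 passed the filter and 4 were called higher (median log2 fold change 1.73), and the summed level was 86.2 to 119 normalized counts in WT livers against 217 to 261 in the mutants. The endothelial markers had a median of −0.36 on size factors and 0.37 on total reads, where all tested genes had 0.70. Among the adipocyte markers, Lep was at 0 in 5 of the 6 libraries.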
